A study of Mus musculus with 18 samples.

Results

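CTCF binding was described at 10 imprinted genes whose control regions carry DNA methylation on the maternal chromosome: Gnas, Nnat, Snrpn, Peg3, Igf2r, Airn, Grb10, Mest, Peg10 and Plagl1. Igf2r and Airn overlap, so the genes form 9 loci. An interval of a deposited peak list was taken when any of its summits lay in one of these genes or within 10 kb of it, on mm10 coordinates. This gave 29 of 59372 intervals in SKO cells, 28 of 62238 in TKO cells and 38 of 71075 in WT cells. Merged over the lists they made 43 of 78072 regions, numbered below in genome order within each locus.

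The cells were mouse embryonic stem cells of 3 genotypes, assayed by chromatin immunoprecipitation and sequencing (ChIP-seq) with an antibody against CTCF. SKO cells lacked Dnmt1, Dnmt3a and Dnmt3b, which methylate cytosine, and also Tet1, Tet2 and Tet3, which oxidise methylated cytosine. TKO cells lacked Tet1, Tet2 and Tet3 only, and WT cells carried all 6 genes. No treatment, time or strain is labelled, and all cells were grown with LIF in serum replacement, usually on irradiated mouse fibroblast feeders, whose chromatin may be in the lysates. The labels do not say whether a genotype is 1 clone. Each group had 3 ChIP and 3 input libraries, but each list was called on the 3 replicates pooled, so a genotype gives 1 value per peak. There is no spread between replicates and no test here, and differences between genotypes cannot be told apart from other differences between the lines. CTCF peaks do not show whether the cells were pluripotent or whether the genes were deleted, so neither label was checked.

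CTCF is a zinc finger protein that, with cohesin, anchors chromatin loops and can insulate genes from enhancers. Methylation of CpG in its motif is known to hinder its binding at some sites. At the loci described here the control region is methylated in the egg and the mark is kept on the maternal chromosome after fertilisation, while the paternal copy stays unmethylated and is often the promoter of a paternally expressed gene. The DNMT enzymes maintain such marks. The positions of the control regions were not used, so no peak is placed inside or outside one. The peak lists do not separate the parental chromosomes. A weaker peak on both chromosomes of every cell and a peak on fewer chromosomes or in fewer cells therefore cannot be told apart.

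RefSeq promoter windows (GRCm38.p6, the assembly of mm10) run from 250 bases before a transcript start to 50 after it, and 9 of the 10 genes matched at least 1 of them, with 18 windows in all. At 2 of these genes, Gnas and Mest, a deposited interval overlapped a window. A further window, that of the neighbouring gene Zim1, was overlapped by an interval of the Peg3 locus. These windows are shown because they are the places where the peaks meet an annotated start. In the Gnas window capitals mark a CTCF core motif, found here on the minus strand of the genome. It was spelled as CC, any 3 bases, AG, any 2 bases and GGC, and searched on both strands. In the Mest and Zim1 windows, which hold no such match on either strand, capitals mark the bases inside the interval.
Gnas, chr2:174284070-174284369, plus strand: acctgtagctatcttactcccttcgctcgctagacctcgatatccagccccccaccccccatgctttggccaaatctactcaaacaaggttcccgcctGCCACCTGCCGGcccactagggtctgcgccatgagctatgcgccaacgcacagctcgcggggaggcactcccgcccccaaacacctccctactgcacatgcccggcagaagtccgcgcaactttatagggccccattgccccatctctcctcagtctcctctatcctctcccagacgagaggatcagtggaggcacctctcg
Mest, chr6:30737800-30738099, plus strand: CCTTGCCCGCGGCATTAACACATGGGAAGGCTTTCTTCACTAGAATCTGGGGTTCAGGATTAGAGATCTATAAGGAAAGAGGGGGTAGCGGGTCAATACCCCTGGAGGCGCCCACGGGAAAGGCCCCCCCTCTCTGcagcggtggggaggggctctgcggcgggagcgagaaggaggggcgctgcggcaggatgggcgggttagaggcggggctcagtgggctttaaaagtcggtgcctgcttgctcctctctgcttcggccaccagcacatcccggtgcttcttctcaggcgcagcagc
Zim1, chr7:6696383-6696682, minus strand: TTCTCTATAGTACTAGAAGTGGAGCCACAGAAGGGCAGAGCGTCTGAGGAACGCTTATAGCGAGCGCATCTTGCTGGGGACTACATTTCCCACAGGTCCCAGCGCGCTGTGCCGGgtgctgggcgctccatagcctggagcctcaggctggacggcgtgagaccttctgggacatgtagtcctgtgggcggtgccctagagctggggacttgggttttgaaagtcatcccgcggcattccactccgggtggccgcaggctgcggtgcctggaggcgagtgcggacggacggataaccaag

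The motif was present in 1 of the 18 windows of these genes (5.56%), in 8.61% of all 32851 RefSeq windows and in 26.6% of the 3097 windows that a WT interval overlapped. A match is a run of letters and was not tested as a binding site. The Gnas match holds 1 CpG, and its centre lay 24.5 bp from the summit in SKO cells, 25.5 bp in TKO cells and 1.50 bp in WT cells. The Gnas window has 16 CpG, the Mest window 17 and the Zim1 window 20, against a median of 7 over all windows and of 19 over those that a WT interval overlapped.

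Across the 9 loci, CTCF peaks were fewer in both knockout lists. The WT peaks absent from a knockout were nearly all weak, as were those absent over the whole list. Of the 38 WT intervals, 13 had no SKO peak over them (34.2%, 95% Wilson interval 21.2% to 50.1%), against 21.9% of the whole WT list. Without a TKO peak were 11 (28.9%, 17.0% to 44.8%), against 18.98% of the whole list. The whole-list share lay inside both Wilson intervals. These cover counting error only and take the peaks as independent, though many share a locus, so they are not a test. In the other direction, 4 of 29 SKO intervals had no WT peak (13.8%, 5.50% to 30.6%), against 6.59% of the whole SKO list, and 1 of 28 TKO intervals had none (3.57%, 0.633% to 17.7%), against 7.49%. Between the knockouts, 5 of 29 SKO intervals had no TKO peak (17.2%, background 10.4%) and 4 of 28 TKO intervals had no SKO peak (14.3%, background 14.5%).

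By region, 24 of 43 (55.8%) held a peak in all 3 lists, against 66.3% of all merged regions. WT alone had a peak in 10 (23.3%, against 12.7%), SKO alone in 4 (9.30%, against 3.34%) and TKO alone in 1 (2.33%, against 4.30%). WT and TKO without SKO accounted for 3 (6.98%, against 7.18%), WT and SKO without TKO for 1 (2.33%, against 4.51%), and SKO and TKO without WT for 0, against 1.64%. Both comparisons use the same WT list, so the WT-only class is not independent evidence from 2 knockouts. The map of the loci shows where the peaks lie.

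**Figure D1:**
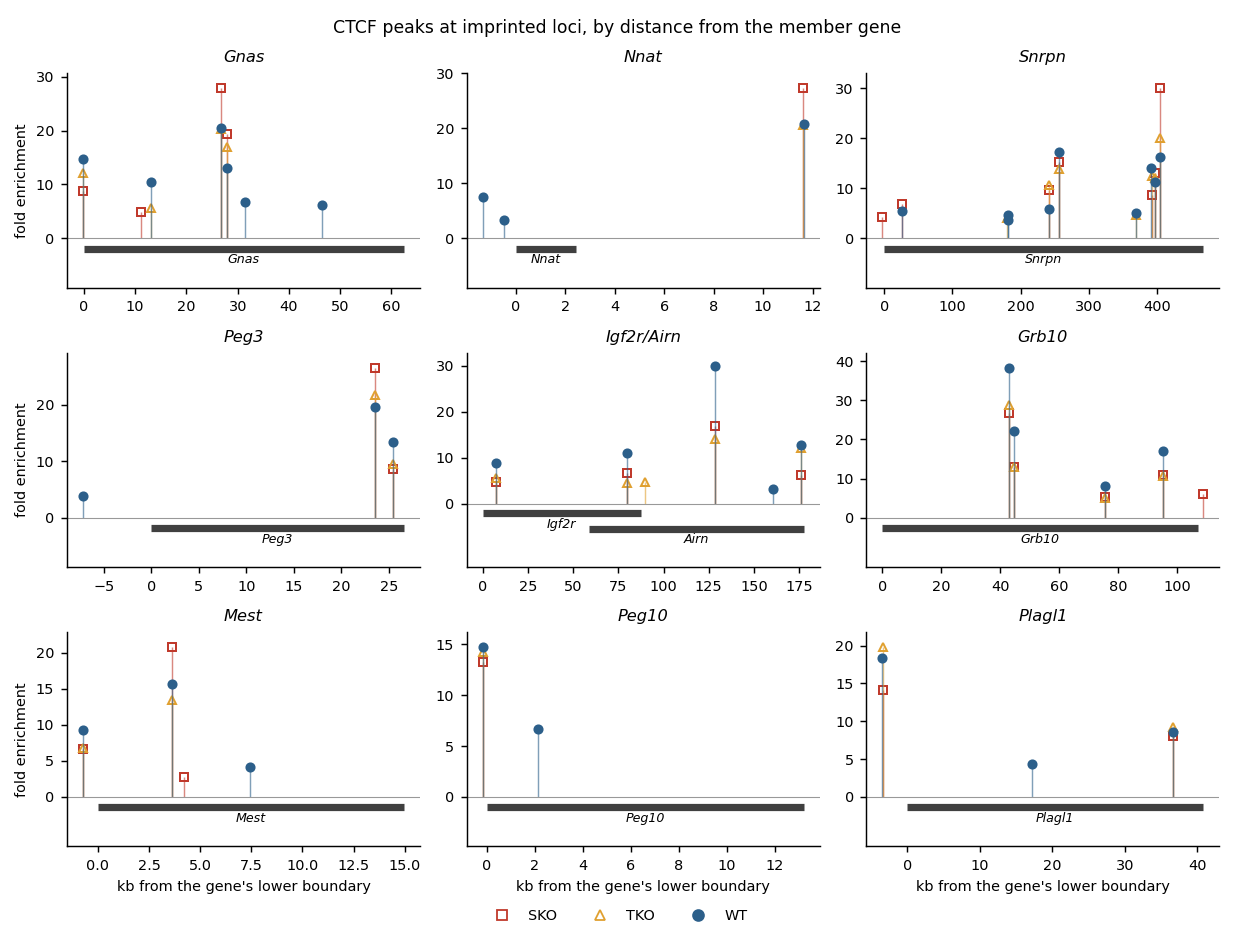
Fold enrichment at the strongest summit (vertical axes) against distance in kb from the lower boundary of the gene in genome coordinates (horizontal axes), for the SKO (open squares), TKO (open triangles) and WT (filled circles) lists; grey bars are the genes, and for Igf2r/Airn the distance is from Igf2r. The tallest peaks of Grb10 and of Airn were lower in SKO and TKO than in WT, and every locus but Grb10 held at least 1 WT peak with no knockout partner.

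Strength was read from the authors' −log10 q, by which the whole WT list was divided into 10 equal bins. The 13 WT intervals absent from SKO had −log10 q between 2.01 and 29.1, and 12 of them lay in the 4 weakest bins. The 11 absent from TKO all lay in those bins, with −log10 q between 2.01 and 14.4. Of all WT intervals, 94.5% of those absent from SKO and 95.4% of those absent from TKO lay in the same 4 bins. The share of absent peaks that were weak was thus near that of the whole list. Fold enrichment is the number of ChIP fragments piled over the summit divided by the number expected there from the local background, with 1 added to each. The median fold was 4.72 in both sets, against 14.7 for the WT intervals shared with SKO and 14.0 for those shared with TKO. Of the 20 WT intervals at these loci in the upper 5 bins, 1 was absent from SKO and 0 from TKO. In the whole list, 2.11% of the sixth bin was absent from SKO and 1.58% from TKO. Of each stronger bin, at most 0.324% was absent from SKO and at most 0.183% from TKO. Within each of the 4 weakest bins, the absent share at these loci was above that of the whole list. From the weakest bin up, 6 of 6, 2 of 3, 3 of 4 and 1 of 2 were absent from SKO. The whole-list shares were 76.9%, 62.1%, 43.4% and 24.6%. Absent from TKO were 5 of 6, 3 of 3, 2 of 4 and 1 of 2, against 70.4%, 55.2%, 36.3% and 19.2%. These bins hold few intervals, and the contrast was not tested.

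**Figure D2:**
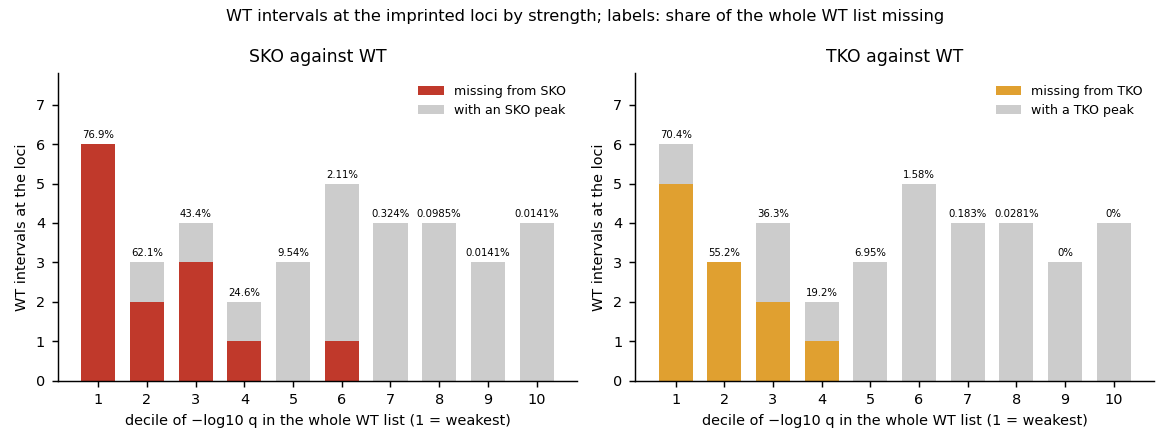
WT intervals at the 9 loci (vertical axes, number of intervals) by bin of −log10 q in the whole WT list (horizontal axes, 1 is the weakest), with those absent from SKO (left) or TKO (right) in colour and the rest in grey. The percentages above the bars are the share of all WT intervals of that bin that were absent; 6 of 6 intervals of the weakest bin were absent from SKO and 5 of 6 from TKO.

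Where a peak was present in both lists, its fold was compared, and a ratio of at least 1.5 either way was called. Of 25 shared intervals, 10 had a lower fold in SKO than in WT (40.0%), against 18.3% of all shared intervals, and 2 had a higher one, against 9.71%. Of 27 shared intervals, 7 were lower in TKO than in WT (25.9%, background 19.1%) and 1 was higher (background 6.97%). The median ratio was 0.772 for SKO over WT and 0.893 for TKO over WT, where all shared intervals had medians of 0.929 and 0.901. Between the knockouts 1 of 24 was lower in SKO than in TKO (background 11.6%) and 2 were higher (background 15.9%).

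The fold depends on the local background as well as on the ChIP signal, and both can be solved from the deposited fold and −log10 p. Divided by the lowest background of its list, which stands for depth, the ChIP pileup was lower by 1.5 times in SKO at 2 of 25 intervals (background 11.7%) and in TKO at 6 of 27 (background 14.5%). It was higher by as much at 0 intervals in SKO (background 4.88%) and 0 in TKO (background 2.38%). Between SKO and TKO it was lower at 0 of 24 (background 4.54%) and higher at 2 (background 10.8%). The count for SKO thus was 2 under this measure and 10 by fold. The lowest background was 1.37 fragments in SKO, 1.82 in TKO and 1.76 in WT.

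**Figure D3:**
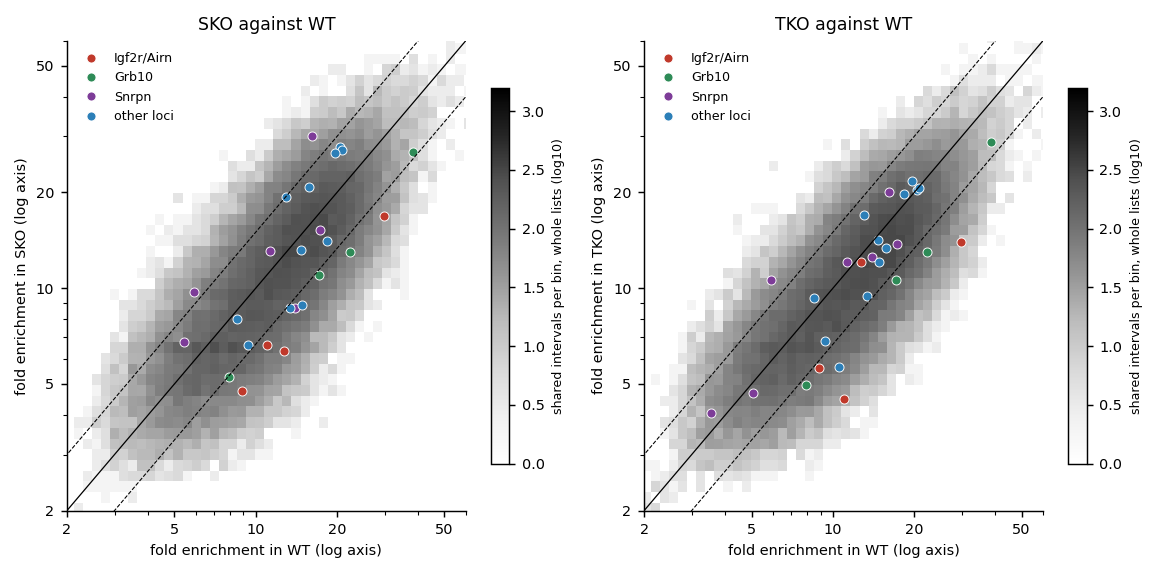
Fold enrichment in SKO (left) and TKO (right) against that in WT, on log axes, for the shared intervals of the 9 loci (coloured points) over all shared intervals (grey, number per bin on a log10 scale); the solid line marks equality and the dashed lines a ratio of 1.5 either way. All points of Grb10 and Igf2r/Airn lie below the solid line, and 2 Snrpn points lie above the upper dashed line in SKO and 1 in TKO.

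Gnas, on chromosome 2 (174284320 to 174346744), encodes the stimulatory G protein alpha subunit and, from upstream starts, further imprinted transcripts. It had 4 intervals in SKO, 4 in TKO and 6 in WT, which made 7 regions. Gnas 1 (174283969 to 174284394 in WT) covers the start at the upstream boundary of the gene, the window printed above, with its WT summit 148 bases before the start and inside the antisense gene Gnasas1. The pileup there was 27 fragments in SKO (95% Poisson interval 17.8 to 39.3), 37 in TKO (26.1 to 51.0) and 53 in WT (39.7 to 69.3), and the fold 8.84 in SKO, 12.1 in TKO and 14.8 in WT. The SKO fold was 0.596 times that of WT and the TKO fold 0.815 times. Scaled to the lowest background, the pileup ratio was 0.654 for SKO over WT and 0.674 for TKO over WT.

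Further into the gene, the sites divided. Gnas 3 (174297278 to 174297665) had no SKO peak, a fold of 5.65 in TKO and 10.5 in WT, and it was the only WT interval of the upper 5 bins of strength at the 9 loci that a knockout list lacked. It lies in the sixth bin, where 2.11% of WT intervals were absent from SKO. About 2 kb before it SKO had a peak of its own, Gnas 2 (174295311 to 174295559, fold 4.85, pileup 20). Gnas 4 (174310930 to 174311278), the strongest site of the locus in each list, and Gnas 5 (174312174 to 174312536) were in all lists. Gnas 4 had folds of 27.9 in SKO, 20.4 in TKO and 20.5 in WT, and Gnas 5 had 19.4 in SKO, 17.0 in TKO and 13.0 in WT. The pileup at Gnas 4 was 65 in SKO, 90 in TKO and 90 in WT, so the higher SKO fold stood beside a background of 1.37 in SKO, against 3.46 in TKO and 3.44 in WT. WT alone had Gnas 6 (174315519 to 174315817, fold 6.71) and Gnas 7 (174330650 to 174330911, fold 6.17), with the Gnas 7 summit 777 bases past a downstream start of the gene.

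Nnat, on chromosome 2 (157560078 to 157562525), encodes neuronatin, a small membrane proteolipid of neural and endocrine tissue, and lies within Blcap, a gene first known from bladder cancer. The pair of sites closest to its start were WT peaks alone. Nnat 1 (157558631 to 157558834) had a fold of 7.53 and a pileup of 20 in WT, and Nnat 2 (157559514 to 157559712) had 3.36 and 13, with summits 1341 and 474 bases before the start. Nnat 3 (157571468 to 157571938), with its summit 9.19 kb beyond the gene, was strong in every list, with folds of 27.3 in SKO, 20.6 in TKO and 20.8 in WT. It is the site nearest to the 10 kb limit on the inner side, and on the outer side the nearest was a peak 12.3 kb from Airn with a fold of 6.34 in SKO.

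Snrpn, on chromosome 7 (59982495 to 60450177), encodes a spliceosomal protein, and its promoter region is the imprinting centre of the Prader-Willi and Angelman domain. The annotated gene includes long upstream transcripts and lies in Snhg14, the host of clustered small nucleolar RNAs. It had 7 intervals in SKO, 7 in TKO and 9 in WT, in 10 regions. Nearest to the start it shares with Snurf, 2677 bases upstream, was the weak region Snrpn 2 (60007772 to 60007975), with a fold of 6.76 in SKO and 5.44 in WT and no TKO peak. It was the 1 region of the 9 loci that SKO and WT shared without TKO. Pileups there were 15 in SKO and 14 in WT.

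A further 4 weak sites of Snrpn were each missing from some list. Snrpn 1 (59979767 to 59979984, fold 4.22) was found in SKO alone and Snrpn 4 (60163476 to 60163783, fold 4.72) in WT alone. Snrpn 3 had a fold of 4.06 in TKO and 3.53 in WT (60163050 to 60163272), and Snrpn 7 had 4.70 in TKO and 5.04 in WT (60351094 to 60351398), with no SKO peak at either. The summits of these 2 regions lay 193 and 109 bases apart in TKO and WT, while all other shared summits of TKO and WT at the loci lay within 50 bases.

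In the upstream part of Snrpn 5 regions were in all lists. Snrpn 5 (60224349 to 60224738) was the 1 interval whose fold was called higher in both knockouts, at 9.71 in SKO, 10.6 in TKO and 5.92 in WT. Its pileup was 22 in SKO (13.8 to 33.3), 29 in TKO (19.4 to 41.6) and 19 in WT (11.4 to 29.7), intervals that overlap with depth not scaled out. By scaled pileup its ratio to WT was 1.49 for SKO and 1.47 for TKO, both just short of 1.5 times. Snrpn 10 (60386957 to 60387331) had folds of 30.0 in SKO, 20.0 in TKO and 16.2 in WT, and its SKO ratio was 1.85 to WT and 1.50 to TKO. Its pileups were 70 in SKO, 63 in TKO and 71 in WT, with backgrounds of 1.37 in SKO, 2.20 in TKO and 3.44 in WT. By scaled pileup the SKO ratio was 1.27 to WT and 1.48 to TKO, neither past 1.5 times. Snrpn 8 (60373979 to 60374324) went the other way, with 8.66 in SKO, 12.5 in TKO and 14.0 in WT. Its pileups were 48 in SKO, 51 in TKO and 65 in WT, over backgrounds of 4.66 in SKO, 3.15 in TKO and 3.70 in WT, and by scaled pileup the SKO ratio to WT was 0.948, not past 1.5 times. Snrpn 6 (60238831 to 60239148) had 15.2 in SKO, 13.8 in TKO and 17.3 in WT, and Snrpn 9 (60379732 to 60380125) had 13.1 in SKO, 12.1 in TKO and 11.3 in WT, within the ratio of 1.5.

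Peg3, on chromosome 7 (6703892 to 6730462), encodes a zinc finger protein expressed from the paternal chromosome, with its promoter next to that of Usp29. Peg3 2 (6727086 to 6728175), 2977 bases inside the gene from its start, was in the strongest of the 10 bins of every list. Its pileup was 123 in SKO, 185 in TKO and 222 in WT, over backgrounds of 3.66 in SKO, 7.56 in TKO and 10.3 in WT, and its fold 26.6 in SKO, 21.7 in TKO and 19.7 in WT. The order of the folds was thus the reverse of the order of the pileups, and scaled to the lowest background the pileup ratio was 0.711 for SKO over WT. Closer to the start, Peg3 3 (6729038 to 6729527, 1115 bases inside) had a fold of 8.64 in SKO, 9.45 in TKO and 13.4 in WT. The SKO ratio to WT was 0.645 by fold and 0.598 by scaled pileup, which with Gnas 1 made up the 2 intervals called lower in SKO by both measures. Peg3 1 (6696568 to 6696798, fold 3.83), a WT peak alone, overlaps the window of Zim1, a neighbouring imprinted zinc finger gene, by 115 bases.

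Igf2r, on chromosome 17 (12682406 to 12769706), encodes the receptor that clears IGF2 and is expressed from the maternal chromosome, and Airn (12741311 to 12859884) is the non-coding RNA from the paternal chromosome that silences it. No interval in any list overlapped the promoter window of either gene. All 4 regions common to the lists had a fold called lower in SKO than in WT, and 3 of them one called lower in TKO. Igf2r/Airn 4 (12810398 to 12810876), inside Airn, had folds of 16.9 in SKO, 14.0 in TKO and 29.9 in WT. Its pileup was 61 in SKO (46.7 to 78.4), 101 in TKO (82.3 to 123) and 116 in WT (95.9 to 139). The local background was 2.66 in SKO, 6.30 in TKO and 2.91 in WT, and the scaled pileup ratio to WT was 0.675 for SKO and 0.841 for TKO.

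Igf2r/Airn 2 (12762297 to 12762709), where the genes overlap, had a fold of 6.63 in SKO, 4.48 in TKO and 11.0 in WT, and pileups of 20 in SKO, 19 in TKO and 36 in WT. The TKO ratio to WT, 0.408, was the lowest of any shared interval at the loci, and by scaled pileup it was 0.510. Igf2r/Airn 1 (12689548 to 12689913), near the far end of Igf2r, had 4.76 in SKO, 5.62 in TKO and 8.88 in WT. Igf2r/Airn 6 (12858093 to 12858483), inside both Airn and the receptor gene Mas1, had 6.34 in SKO, 12.1 in TKO and 12.7 in WT. It was the 1 interval called lower in SKO than in TKO, at a ratio of 0.525. TKO alone had Igf2r/Airn 3 (12772146 to 12772391, fold 4.83), 2554 bases upstream of the Igf2r start, and WT alone had Igf2r/Airn 5 (12842741 to 12842943, fold 3.27, pileup 8).

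Grb10, on chromosome 11 (11930499 to 12037428), encodes an adaptor protein that restrains insulin and growth factor signalling. It was the only locus where no WT interval was absent from a knockout, and all 4 of its WT intervals had lower folds in both. Grb10 1 (11973277 to 11973871), the peak of highest fold at the 9 loci in TKO and WT, had 26.8 in SKO, 28.8 in TKO and 38.4 in WT, and pileups of 142 in SKO (120 to 167), 182 in TKO (157 to 210) and 220 in WT (192 to 251). Its ratios to WT, 0.699 for SKO and 0.751 for TKO, were not past 1.5 times. The other 3 were past it in both knockouts: Grb10 2 (11974863 to 11975350) with 13.0 in SKO, 13.0 in TKO and 22.3 in WT, Grb10 3 (12005717 to 12005988) with 5.25 in SKO, 4.97 in TKO and 7.98 in WT, and Grb10 4 (12025634 to 12025975) with 11.0 in SKO, 10.6 in TKO and 17.1 in WT.

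The Grb10 values by scaled pileup were lower than WT by 1.5 times at 3 sites in TKO and at 0 in SKO, where the ratios ran between 0.697 and 1.01. Grb10 4 lies 2155 bases inside an internal start. On the other side of the gene's upstream boundary, 1916 bases before the first start, SKO alone had Grb10 5 (12039236 to 12039442, fold 5.91, pileup 13).

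**Figure D4:**
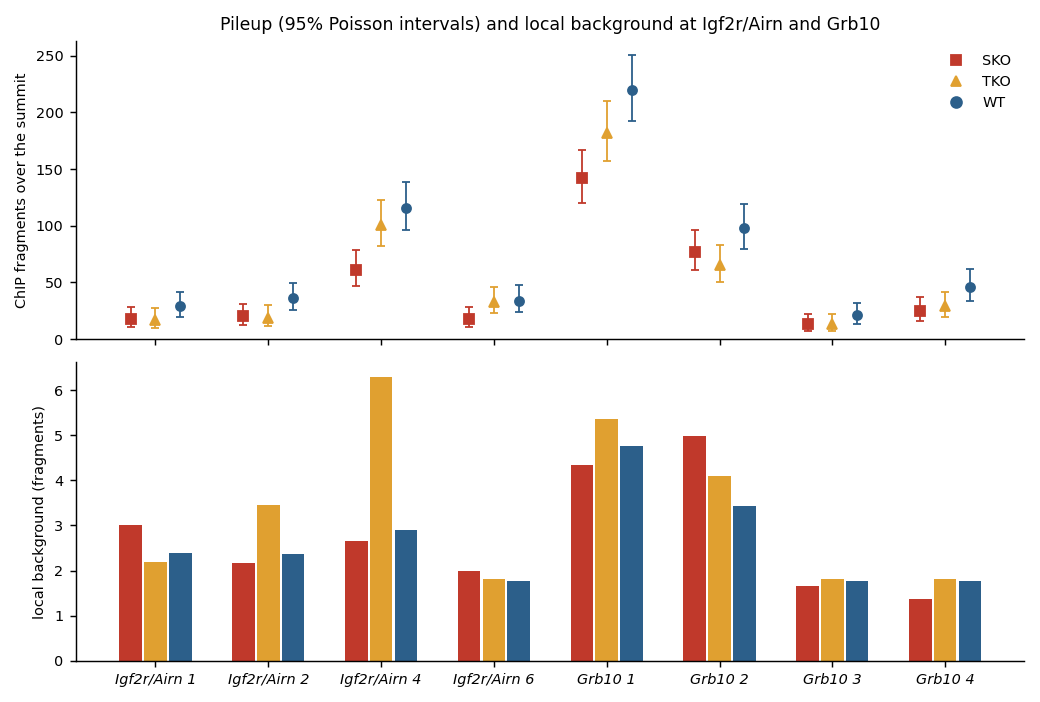
ChIP fragments over the strongest summit with 95% Poisson intervals (top) and local background in fragments (bottom), solved from the deposited values, for the 8 regions of Igf2r/Airn and Grb10 found in all lists, in SKO, TKO and WT; depth is not scaled out. WT had the highest pileup at each of the 8, and the TKO background of 6.30 at Igf2r/Airn 4 stands above 2.66 in SKO and 2.91 in WT.

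Igf2r/Airn and Grb10 together held 7 of the 10 intervals called lower by fold in SKO and 6 of the 7 in TKO, among 8 shared intervals in each comparison. The remaining loci held 3 of 17 in SKO and 1 of 19 in TKO. Over all shared intervals, 18.3% were called lower in SKO and 19.1% in TKO. By scaled pileup the same 8 intervals gave 0 in SKO (background 11.7%) and 5 in TKO (background 14.5%). The 0 depends on the limit of 1.5 times. The scaled SKO ratios ran between 0.675 and 0.797 at Igf2r/Airn and between 0.697 and 1.01 at Grb10, against a whole-list median of 0.942. These loci were singled out after their values were seen, both comparisons use the same WT list, and the contrast was not tested.

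Mest, on chromosome 6 (30733506 to 30748466), encodes a protein of the hydrolase fold family expressed from the paternal chromosome in the embryo. Mest 1 (30732613 to 30733004), 713 bases before the upstream start, had folds of 6.65 in SKO, 6.81 in TKO and 9.35 in WT. Mest 2 (30736905 to 30737291), 928 bases before the internal start, had 20.8 in SKO, 13.4 in TKO and 15.7 in WT, and was called higher in SKO than in TKO at a ratio of 1.55. Its pileup was 82 in SKO (65.2 to 102), 64 in TKO (49.3 to 81.7) and 73 in WT (57.2 to 91.8). These counting intervals overlap, but depth is not scaled out of them. Scaled to the lowest background, the SKO over TKO ratio was 1.70.

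Beside it SKO alone had Mest 3 (30737623 to 30737935), which reaches 136 bases into the window printed above. It was the weakest peak of the SKO list at these loci, with a fold of 2.75, a pileup of 10 and a −log10 q of 1.49, just above the lowest value in that list, 1.31. WT alone had Mest 4 (30740860 to 30741063, fold 4.17) inside the gene.

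Peg10, on chromosome 6 (4747306 to 4760517), is a gene derived from a retrotransposon and needed for the placenta, and it shares its upstream flank with Sgce, which encodes epsilon-sarcoglycan. Peg10 1 (4746976 to 4747258), 167 bases outside Peg10 and inside Sgce, was alike in fold in the 3 lists, at 13.2 in SKO, 14.2 in TKO and 14.7 in WT, with pileups of 43 in SKO, 49 in TKO and 68 in WT. Peg10 2 (4749308 to 4749538, fold 6.64) was a WT peak alone. Plagl1, on chromosome 10 (13090832 to 13131694), encodes a zinc finger transcription factor that restrains growth. Plagl1 1 (13087217 to 13087640), 3419 bases before the start, had 14.1 in SKO, 19.8 in TKO and 18.3 in WT, and Plagl1 3 (13127291 to 13127746), inside the gene, had 8.01 in SKO, 9.31 in TKO and 8.54 in WT. Plagl1 2 (13107958 to 13108180, fold 4.31) was found in WT alone. Neither locus had a fold ratio past 1.5 in any of the 3 comparisons.

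**Figure D5:**
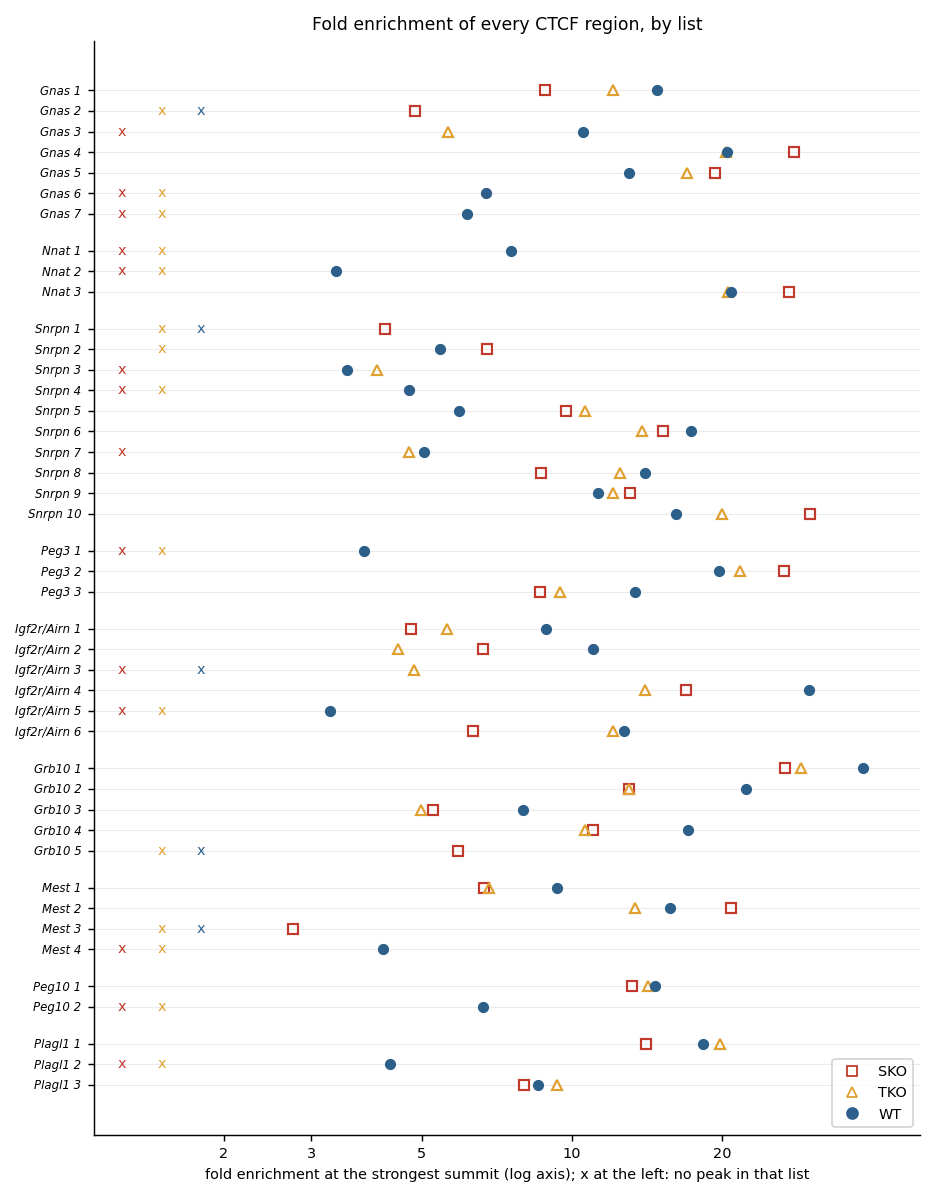
Fold enrichment at the strongest summit (horizontal axis, log scale) of each of the 43 regions (rows, by locus) in the SKO (squares), TKO (triangles) and WT (circles) lists; a coloured x at the left marks a list with no peak. WT stands to the right of both knockouts in each Grb10 and Igf2r/Airn region that all lists share, and the regions missing from a list have folds of 10.5 or less.

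Where summits were shared they sat at nearly the same base. The median distance between strongest summits was 11.0 bp for SKO and WT, 11.0 bp for TKO and WT and 12.0 bp for SKO and TKO, and it was at most 45 bp for all 25 intervals shared by SKO and WT. Each interval had 1 summit except Mest 1 in TKO, which had 2, while 2.83% of all TKO intervals had more than 1.

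Of 32 other genes of the 9 loci, 31 matched the RefSeq table, and 63 SKO, 64 TKO and 73 WT intervals lay in them or within 10 kb, of which 10, 7 and 14 were also intervals of the 10 genes. Of the 73 WT intervals 15 had no SKO peak (20.5%, Wilson interval 12.9% to 31.2%) and 11 no TKO peak (15.1%). In the whole WT list, 21.9% had no SKO peak and 18.98% no TKO peak. Imprinted loci with paternally methylated control regions (H19, Igf2, Dlk1, Meg3 and Rasgrf1) lacked 3 of 15 WT intervals in SKO (20.0%, 7.05% to 45.2%) and 2 of 15 in TKO. The imprinted Kcnq1 domain, counted on its own whatever its class of methylation, lacked 2 of 15 in each knockout (13.3%, 3.74% to 37.9%). These Wilson intervals overlap those of the 10 genes described here, and the differences were not tested.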

How the data were processed

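The deposited files used were 3 peak lists, 1 per genotype, each called by the authors on 3 ChIP replicates pooled against input, per the labels. Named in the submitters' processing notes are mm10, MACS2 2.1.2, Bowtie2 2.3.4, FastQC 0.11.7, deepTools 3.5.0, bedtools 2.25.0 and SAMtools 1.9. Commands and filters on reads: not given in the sources used here. Each deposited peak has a fold (a ratio, piled ChIP fragments over local background, 1 added to each), a −log10 p and a −log10 q, used as a score of strength, all the authors' own values.

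Rows of equal interval were joined with their strongest summit kept. A partner in another list overlapped by at least 1 bp. The whole-number pileup and the background were solved from fold and −log10 p (relative error under 0.0001) for 99.7% of SKO, 99.6% of TKO and 99.5% of WT intervals, with Python 3.11.15 and scipy 1.17.1. This takes the fold to have 1 added to both and p to be Poisson, which no source used here states. The solution was tested on data simulated under the same assumptions, which checks the arithmetic and cannot check the assumptions. Library totals were not used; the lowest background, 0.779 times that of WT in SKO and 1.04 times in TKO, stands for depth. Intervals are 95% and cover counting error only. The libraries were amplified by PCR without stated molecular identifiers.

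Gene positions and starts are those of RefSeq on GRCm38.p6. The tables used give no exons, so exons and introns were not told apart. Every region of the 10 genes is named; most were covered by a rule taking each region missing from a list or past a fold ratio of 1.5. The members and lists were chosen with earlier results of these data known. Alternatives varied the window, the strength, the overlap, the summit and the scaling.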

Additional observations from a re-analysis of the deposited data

How the results depend on the processing

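Of the 9 counts of intervals present or absent, 37 of 48 values under the alternatives stayed within 1.5 times the value reported, and of the 3 counts of lower fold 5 of 15 did. With summits placed by the strongest alone, all 9 counts it applies to did. Requiring a −log10 q of at least 5 left 7 WT intervals absent from TKO in place of 11, 8 absent from SKO in place of 13, 2 SKO intervals without a WT peak in place of 4 and 3 SKO intervals without a TKO peak in place of 5. Gene bodies alone gave 2 SKO intervals without a WT peak and 3 without a TKO peak. A window of 50 kb gave 45 SKO and 44 TKO intervals in place of 29 and 28, and 2 TKO intervals without a WT peak in place of 1. That last count was 3 with summits matched within 100 bp and 2 with an overlap of 50% of both intervals.

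The fold calls depended more on the setting. With a ratio of 2, the intervals lower than WT were 1 in SKO and 2 in TKO, in place of 10 and 7, and with folds over the median of shared intervals 6 in SKO and 4 in TKO. By pileup over the lowest background the SKO count was 2, and with 50 kb the TKO count was 11. The 1 interval lower in SKO than in TKO became 0 with a ratio of 2, 2 with folds over the median, 0 by pileup and 2 with 50 kb. The cause was not tested.

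No paired analysis was possible because the 3 replicates of each genotype were pooled before peak calling. An absent peak need not mean absent binding. At the lowest background, the smallest pileup of a listed peak was 7 fragments in SKO, 8 in TKO and 7 in WT. The WT peaks absent from both knockouts had WT pileups of 8 to 27, over local WT backgrounds of up to 3.44. Depth is not scaled out of these pileups, and whether it bears on the absences was not tested.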

Other observations

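Counted after the values were seen, 14 of the 41 regions of genes with a RefSeq start had their summit within 3 kb of such a start, and 6 of these 14 (42.9%) held a peak in all 3 lists. Of the other 27 regions 17 did (63.0%). Over all merged regions the shares were 66.1% of 10891 within 3 kb of any RefSeq start and 66.3% of 67181 farther away. The shares are not like for like, because regions of the loci were measured only to starts of the 10 genes. Peg3 1, which overlaps the window of Zim1, thus counts as far from a start. Within 1 kb of a start of their own gene lay 6 regions, of which 3 were in all lists (Gnas 1, Mest 1 and Mest 2), 2 in WT alone (Gnas 7 and Nnat 2) and 1 in SKO alone (Mest 3). Over all merged regions 62.7% within 1 kb of a start were in all lists and 66.6% of those farther away. The difference was not tested.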
